A study of Homo sapiens with 6 samples.

Results

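RAS GTPase activating proteins (RAS GAPs) switch off RAS, and the transcripts of 6 RAS GAP genes were followed on microarrays in a human breast cancer line treated with an inhibitor of histone deacetylases. The line, MDA-MB-231, is triple-negative and mesenchymal in character, and the arrays were of the PrimeView type. Cells of the treated group received SAHA (vorinostat) at 5 µM for 8 h and those of the control group the solvent DMSO for the same time. Each group has 3 arrays, and the labels name no other agent or genetic change in either. Nothing in the labels states that replicates were separate cultures, so the errors cover the spread between these samples, which may be technical, and the small number of arrays limits the precision.

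The members are all probe sets whose annotated gene symbol includes one of 8 RAS GAP genes, those with shared or repeated annotation included. This gave 38 of the 49293 probe sets that are not array controls, for RASA2, RASA3, RASA4, NF1, RASAL1 and RASAL2, which are 6 of the 19605 genes named on the array. The other 2 genes of the rule were not analysed here. The genes were chosen with results of this contrast known, so the SAHA minus DMSO differences of the members are a description and carry no p-values.

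RAS proteins are molecular switches that signal when bound to GTP and rest when bound to GDP. RAS GAPs speed up the hydrolysis of GTP by RAS and so end the signal, while exchange factors such as SOS1 load RAS with GTP anew. Loss of a RAS GAP is one of the ways in which tumour cells keep RAS and the MAP kinase cascade active, and NF1, which encodes neurofibromin, is the best known tumour suppressor of the family. RASA2, RASA3, RASA4 and RASAL1 form the GAP1 subfamily, whose C2 and PH domains tie the proteins to membrane lipids, and RASAL2 belongs to the SYNGAP subfamily.

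Values are log2 expression, where 1 unit is a factor of 2, and differences are SAHA minus DMSO with the moderated standard error of limma, a linear model fitted to every probe set. Arrays correlated at 0.9976 or more within SAHA, at 0.9968 or more within DMSO and at 0.9685 to 0.9696 between groups (Pearson's r across probe sets). The ACTB control probe sets, whose 3' minus 5' difference reflects transcript integrity and amplification, gave 0.615 ± 0.064 in SAHA and 0.892 ± 0.159 in DMSO arrays (SD, n = 3 each), with a two-sided exact permutation p of 0.1, which is the smallest for this design, and an adjusted p of 0.25 over 5 control measures. For GAPDH this difference had the opposite direction between groups and a smaller size, with 0.063 ± 0.020 in SAHA and 0.029 ± 0.019 in DMSO arrays (SD, n = 3 each), with the same exact permutation p and adjusted p. Both moved with the groups and so with each result given here, and their part in them was not tested. Background control probe sets had a median of 3.23 ± 0.03 in SAHA and 3.29 ± 0.04 in DMSO arrays (SD, n = 3 each). The 6 markers of mesenchymal breast cancer cells had mean levels of 9.44 to 13.99, and 5 of them were lower with SAHA and 0 higher. The 6 luminal markers had mean levels over all arrays of 3.33 to 7.16, and 1 was higher and 2 lower with SAHA. ERBB3 was at 7.50 ± 0.34 in SAHA and 4.65 ± 0.30 in DMSO arrays (SD, n = 3 each), a difference of 2.85 ± 0.20, while GATA3 and FOXA1 had differences of -1.23 ± 0.08 and -0.78 ± 0.10 (limma's adjusted p = 1.13e-05, 9.21e-06 and 0.00025). The other 2 ERBB3 probe sets rose less, by 1.03 and 1.29. The other 2 GATA3 probe sets were lower, at -1.73 and -0.62, and the other FOXA1 probe set, at -0.24, was not called. Of 7 markers of leukocytes, endothelium and stroma, the stromal marker LUM was at 2.82 and the leukocyte marker PTPRC at 3.29, CD68 reached 9.09, and 2 were lower with SAHA. In bulk RNA, a change in each cell and a change in the share of cells that express a gene cannot be told apart.

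RASA4 held both the largest difference of the family and a probe set with almost none. RASA4, also called CAPRI, is a GAP recruited to the plasma membrane when calcium rises. Its probe set 11754224_x_at read 8.91, 8.75 and 8.84 in the SAHA arrays, against 3.31, 3.74 and 3.68 in the DMSO arrays. The groups lay far apart, and the DMSO values were close to the background controls. The difference was 5.26 ± 0.12, or 38.2-fold, and only 3 of the 49293 probe sets had a larger rise. Values flatten near the floor of the scale, so this fold may be understated.

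The probe set 11746458_s_at read 6.70, 6.55 and 6.75 in the SAHA arrays, against 4.28, 4.11 and 3.75 in the DMSO arrays. Here too the groups did not overlap, at a difference of 2.62 ± 0.13, or 6.14-fold. The probe set 11739422_s_at, which had the highest mean of the 3, read 6.50, 6.66 and 6.57 in the SAHA arrays, against 6.61, 6.53 and 6.58 in the DMSO arrays. Its groups overlapped, and the difference was 0.004 ± 0.067. Under the other settings tried, the difference stayed between 5.12 and 5.51 in the first probe set, between 2.47 and 2.87 in the second and between -0.04 and 0.26 in the third.

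**Figure D1:**
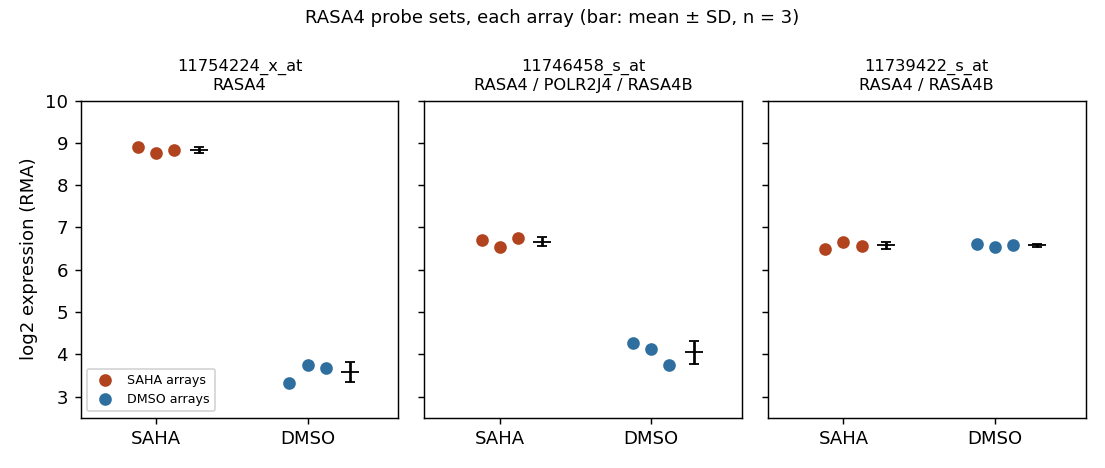
Log2 expression (y axis) in each SAHA and DMSO array for the 3 probe sets that name RASA4, with the mean and SD beside the points. SAHA arrays lie above DMSO arrays by 5.26 log2 units for 11754224_x_at and by 2.62 for 11746458_s_at, and the groups overlap for 11739422_s_at.

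None of the 3 probe sets names RASA4 plainly and alone. The annotation of 11754224_x_at repeats the symbol RASA4, that of 11739422_s_at adds RASA4B, a near-identical copy of the gene, and that of 11746458_s_at adds RASA4B and POLR2J4. Names ending in _x_at or _s_at mark probes that match several similar transcripts. Signal from RASA4 and from its copies therefore cannot be told apart, and which transcript each probe set measured is uncertain. The probe set 11760264_s_at, which names POLR2J4 with POLR2J2 and POLR2J3 but not RASA4, was at 7.63 ± 0.06 in SAHA and 7.45 ± 0.06 in DMSO arrays (SD, n = 3 each), a difference of 0.17 ± 0.07 that did not pass the threshold (limma's adjusted p = 0.0628). The probe sets 11733988_x_at and 11756469_x_at, which name POLR2J2, POLR2J3 and UPK3BL1, were called higher, at 0.75 ± 0.15 and 0.73 ± 0.10 (limma's adjusted p = 0.00325 and 0.00052).

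The differences of the 3 RASA4 probe sets spanned 5.25 log2 units. Among the 7785 genes with at least 3 probe sets, counting a shared probe set under each gene it names, this span ranked 2, behind ETV7 at 5.81 and ahead of CRISPLD2 at 5.06, and the median span was 0.29. The RASA4 span and its rank are not exact, since they rest on DMSO values of 11754224_x_at that lie close to the background controls. The span was 0.77 for NF1, 0.74 for RASAL2 and 0.24 for RASA3.

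Genes beside RASA4 in the RefSeq gene table (GRCh38.p14) had smaller differences than the 2 RASA4 probe sets that were called higher. They were not smaller than that of 11739422_s_at, the brightest RASA4 probe set, at 0.004. The 5 nearest protein-coding genes on each side with a probe set naming only that gene were read, and genes with only shared probe sets were skipped. Of these neighbours 5 rose, 3 fell and 2 did not pass the threshold, where 24.1% of genes were called higher, 23.2% lower and 47.3% either way. The nearest of these on one side was POLR2J3, which encodes a relative of an RNA polymerase II subunit, and on the other SPDYE2B. They rose by 0.74 ± 0.06 and 0.42 ± 0.07 (limma's adjusted p = 3.09e-05 and 0.00188). ALKBH4, a demethylase, and ORAI2, a calcium channel subunit, were at -1.04 ± 0.11 and -0.69 ± 0.06 (limma's adjusted p = 0.000106 and 5.6e-05). The second probe set of SPDYE2B was at 0.03. Without _x_at and _s_at probe sets 2 neighbours were higher and 2 lower. POLR2J3 and ALKBH4 have only an _x_at probe set and were not tested in that setting. Centred on ribosomal protein probe sets 7 neighbours were higher and 2 lower, where 24533 and 7080 of all 49293 probe sets were. Centred on poly-A spike-ins 6 neighbours were higher and 2 lower, where 14969 and 6598 of all probe sets were.

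Likeness to RASA4 was measured as the Euclidean distance between profiles over the 6 arrays, each centred on its own mean. The genes closest to the brightest RASA4 probe set, the one without a difference, were SUN2, RNF40, PRDM1, DIP2B and GFRA3, at 0.0357 to 0.0439 log2 units. The same search for 11754224_x_at was added after its values were seen and gave CRISPLD2, ARL14, ETV7, TNFRSF19 and DHRS2, at 0.374 to 0.813. Their own differences ran from 4.70 for TNFRSF19 to 5.77 for DHRS2. Such distances mostly reflect the size of the difference between the groups.

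Every other member moved by less than 1 log2 unit. Of the 38 probe sets, 3 passed the threshold as higher with SAHA and 14 as lower, where 22.2% and 24.1% of all probe sets were called higher and lower and 46.4% either way. The threshold is a Benjamini-Hochberg adjusted p of 0.05 over all 49293 probe sets, and nothing is read from these counts, since the contrast itself led to the choice of genes. The share called rises with level. Among the 17 members with a mean of 5 or more 10 were called, and among the 21 dimmer ones 7, where 62.4% and 15.1% of all such probe sets were. The 2 called RASA4 probe sets, with DMSO means of 3.58 and 4.05, reached a mean of 5 only through their SAHA arrays. Their place among the brighter members is therefore not independent of their calls. Of the 38 member differences 30 lay below 0, with a median of -0.18, against -0.02 over all probe sets.

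How many members were higher or lower varied with the scaling. When centred on ribosomal protein probe sets, which places the median of all probe sets at 0.23, 11 members were higher and 4 lower, with a median of 0.07. Centred on poly-A spike-ins, which places it at 0.16, 4 were higher and 5 lower, with a median of 0.01. Single arrays matter as well, since 7 members were lower without the second DMSO array, without the first SAHA array or without the second SAHA array. Of the 17 calls, 6 held in each other setting that tested them, and these were 2 probe sets each of RASA4, NF1 and RASAL2. Those of RASA4 passed the filter at a mean of 5 only through their SAHA values.

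**Figure D2:**
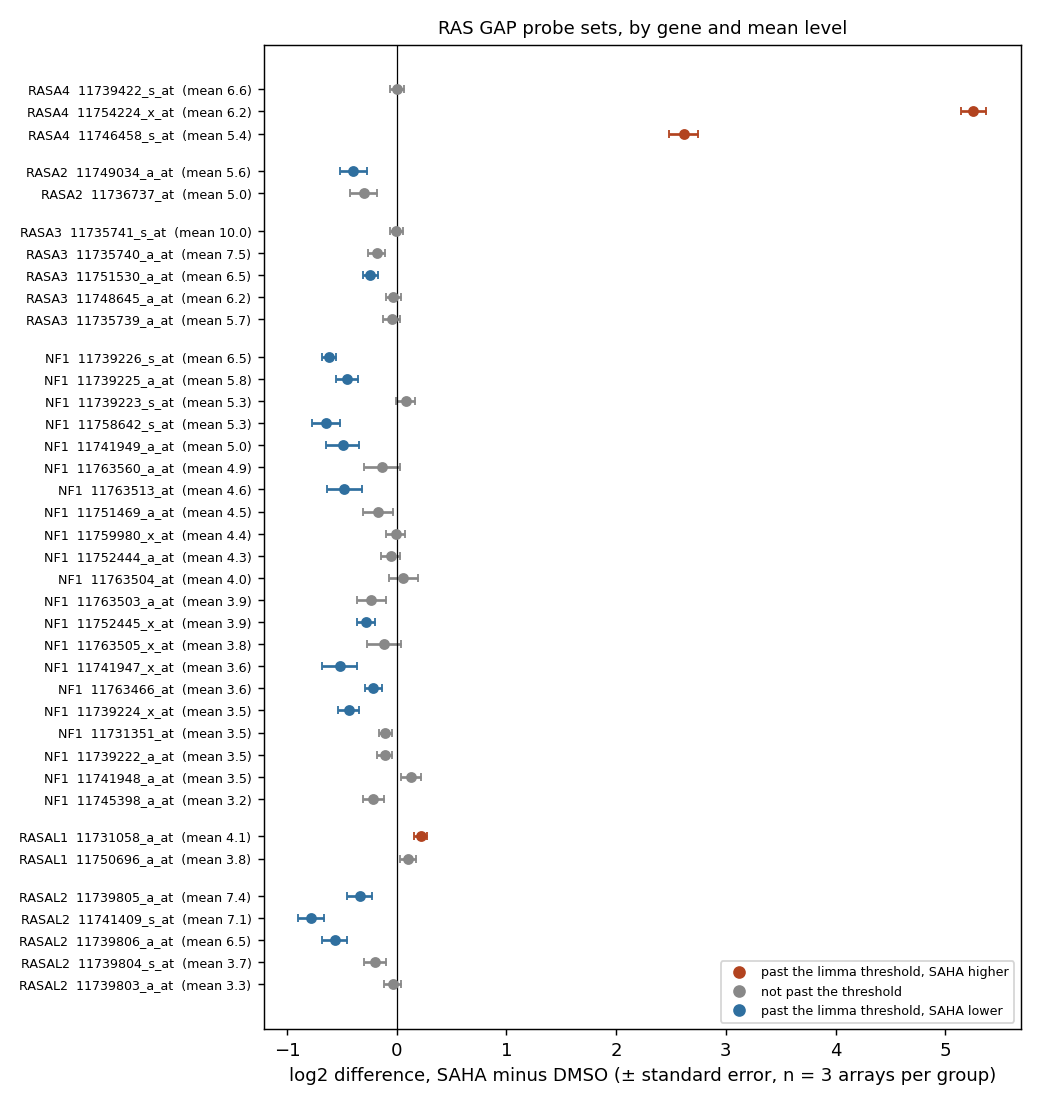
Log2 difference SAHA minus DMSO (x axis, points, with standard errors as bars) for the 38 RAS GAP probe sets, grouped by gene and ordered by mean level. The RASA4 points at 5.26 and 2.62 stand to the right, and all other points lie between -0.78 and 0.22.

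RASA3, a GAP1 member that binds inositol phosphates and also acts on RAP1, had the brightest probe set of the family. This one, 11735741_s_at, read 10.05, 9.99 and 9.97 in the SAHA arrays, against 9.95, 10.05 and 10.02 in the DMSO arrays. The groups overlapped, at -0.004 ± 0.061. The other 4 probe sets had mean levels of 5.73 to 7.49 and differences of -0.24 to -0.03. Of these 11751530_a_at passed the threshold, with 6.32, 6.30 and 6.46 in the SAHA arrays, against 6.64, 6.63 and 6.55 in the DMSO arrays. Its groups did not overlap, at -0.24 ± 0.07, yet the call was lost in 8 of 15 other settings, and centred on ribosomal protein probe sets the difference was 0.01.

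RASA2, a GAP1 member that is mutated in some melanomas, had lower SAHA values in both of its probe sets. The brighter, 11749034_a_at, read 5.46, 5.51 and 5.23 in the SAHA arrays, against 5.72, 6.03 and 5.63 in the DMSO arrays. All SAHA values lay under the DMSO values, and the difference of -0.39 ± 0.12 passed the threshold, a call lost in 6 of 15 other settings, centring on ribosomal protein probe sets or on poly-A spike-ins included. The dimmer, 11736737_at, read 4.57, 5.02 and 4.99 in the SAHA arrays, against 5.06, 5.25 and 5.17 in the DMSO arrays. These groups did not overlap either, but the difference of -0.30 ± 0.12 did not pass.

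RASAL1, a GAP1 member that responds to calcium oscillations, lay near the background controls. Its brighter probe set, 11731058_a_at, read 4.14, 4.24 and 4.19 in the SAHA arrays, against 4.02, 3.99 and 3.91 in the DMSO arrays. The groups did not overlap, at 0.22 ± 0.06, and the call was lost in 8 of 14 other settings. The dimmer, 11750696_a_at, was at 3.84 ± 0.08 in SAHA and 3.73 ± 0.08 in DMSO arrays (SD, n = 3 each) and did not pass.

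NF1 was measured by 21 probe sets, of which 9 passed as lower, 0 as higher and 12 not at all. Most were dim, with 17 under a mean of 5 and 10 under 4. Of the 4 at 5 or more 3 were called lower, and of the 17 dimmer ones 6 were, where 33% and 6.98% of all such probe sets were called lower. The differences had a median of -0.21 and ran from -0.64 to 0.13, with 18 below 0.

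The brightest NF1 probe set, 11739226_s_at, read 6.26, 6.13 and 6.23 in the SAHA arrays, against 6.82, 6.85 and 6.79 in the DMSO arrays. The groups were clearly apart, at -0.62 ± 0.06, or 1.53-fold lower. The largest difference, -0.64 ± 0.13, was that of 11758642_s_at, with 5.20, 4.68 and 5.07 in the SAHA arrays, against 5.54, 5.65 and 5.69 in the DMSO arrays. The names of both 11739226_s_at and 11758642_s_at end in _s_at, so similar transcripts may add to their signal. The second brightest, 11739225_a_at, read 5.52, 5.55 and 5.54 in the SAHA arrays, against 5.84, 6.22 and 5.91 in the DMSO arrays, again without overlap, at -0.45 ± 0.10. Another bright one, 11739223_s_at, did not follow. It read 5.52, 5.29 and 5.30 in the SAHA arrays, against 5.33, 5.37 and 5.17 in the DMSO arrays, with overlapping groups and a difference of 0.08 ± 0.09. In 10 NF1 probe sets all SAHA values lay under the DMSO values, in 0 all lay above and in 11 the groups overlapped, where 28.4% of all probe sets lay wholly under and 25.9% wholly above. In the other settings 11739226_s_at stayed between -0.65 and -0.37 and 11758642_s_at between -0.75 and -0.39, and the call of 11739225_a_at was lost when centred on ribosomal protein probe sets or on poly-A spike-ins.

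RASAL2, which has been studied in breast cancer both as a suppressor and as a promoter of tumour growth, was lower in its 3 bright probe sets. The largest difference was that of 11741409_s_at, which read 6.93, 6.47 and 6.74 in the SAHA arrays, against 7.57, 7.51 and 7.40 in the DMSO arrays. The groups did not overlap, at -0.78 ± 0.12, or 1.72-fold lower. This name also ends in _s_at, so similar transcripts may add to the signal. The probe set 11739806_a_at read 6.47, 6.04 and 6.09 in the SAHA arrays, against 6.71, 6.82 and 6.75 in the DMSO arrays, a difference of -0.56 ± 0.11. The brightest, 11739805_a_at, read 7.41, 6.96 and 7.19 in the SAHA arrays, against 7.41, 7.63 and 7.54 in the DMSO arrays. Here the first arrays of both groups almost met, the difference was -0.34 ± 0.12, and the call was lost in 8 of 16 other settings. In all 3 the first SAHA array was the highest of its group and the second the lowest. The 2 dim probe sets, with means of 3.74 and 3.33, were at -0.20 ± 0.10 and -0.04 ± 0.08 and did not pass.

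**Figure D3:**
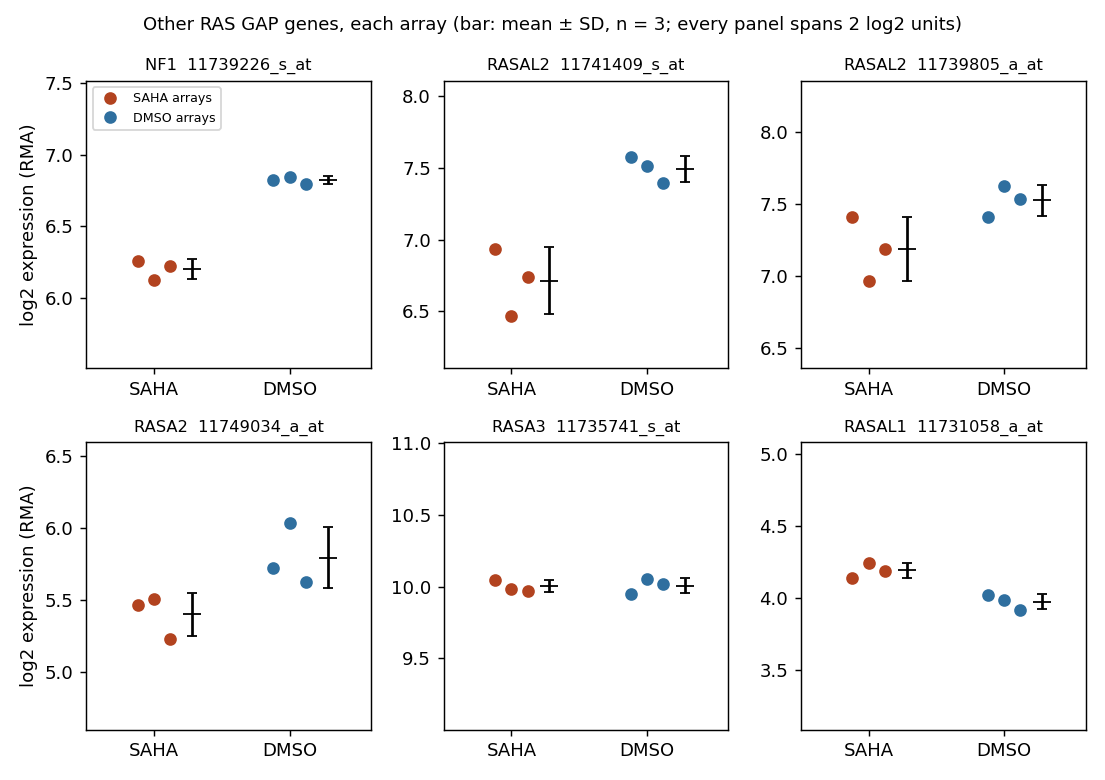
Log2 expression (y axis, each panel spanning 2 units) in each SAHA and DMSO array for the brightest probe sets of NF1, RASAL2, RASA2, RASA3 and RASAL1 and for the RASAL2 probe set with the largest difference, with the mean and SD beside the points. SAHA points lie under the DMSO points for NF1 at -0.62, overlap them for RASA3 and lie above them for RASAL1 at 0.22.

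Promoter sequence is shown for NF1 and RASAL2, whose brighter probe sets were mostly lower. RefSeq windows (GRCh38.p14) were found for 3 of the 6 genes, NF1, RASAL2 and RASA3, and the 250 bases before the annotated start were read on the gene's strand. A search of both strands covered the GC box GGGCGG, which SP1 family factors bind, and the cyclic AMP response element TGACGTCA, which CREB and ATF proteins bind. Matches are in capitals, and those of the motifs do not overlap. The NF1 window is chr17:31094727-31094976 (+ strand), and RASAL2 has a first start with the window chr1:178093854-178094103 (+ strand) and a second with chr1:178341201-178341450 (+ strand).
NF1: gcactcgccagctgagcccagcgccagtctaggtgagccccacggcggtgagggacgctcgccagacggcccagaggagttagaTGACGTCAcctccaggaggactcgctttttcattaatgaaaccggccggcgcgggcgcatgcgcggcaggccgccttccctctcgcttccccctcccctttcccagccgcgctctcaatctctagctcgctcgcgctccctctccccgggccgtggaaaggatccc
RASAL2, first start: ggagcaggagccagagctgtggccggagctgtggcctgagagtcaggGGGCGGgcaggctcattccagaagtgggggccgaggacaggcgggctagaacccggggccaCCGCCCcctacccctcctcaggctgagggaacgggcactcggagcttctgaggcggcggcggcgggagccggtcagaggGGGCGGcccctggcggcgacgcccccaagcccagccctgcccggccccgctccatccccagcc
RASAL2, second start: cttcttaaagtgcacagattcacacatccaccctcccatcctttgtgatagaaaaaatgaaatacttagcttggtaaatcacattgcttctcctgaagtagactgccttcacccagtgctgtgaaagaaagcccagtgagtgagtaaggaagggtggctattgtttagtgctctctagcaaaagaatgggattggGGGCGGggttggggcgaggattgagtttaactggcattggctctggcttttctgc

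The NF1 window held 1 response element and 0 GC boxes, with 25 CpG dinucleotides and 67.2% G and C. The first RASAL2 window held 3 GC boxes, with 19 CpG dinucleotides and 75.2% G and C, and the second held 1, with 2 and 46.4%. Of the RASA3 windows, the first held 5 GC boxes and 32 CpG dinucleotides, and the second 0 and 10. Among all 35116 promoter windows of this length, 42.6% held a GC box and 1.65% the response element, and the medians were 11 CpG dinucleotides and 58.0% G and C. A match describes letters in a window, and the arrays do not show which start was used.

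Other genes of the RAS pathway were counted from 8 lists of 69 genes, of which 61 were analysed, each read from its brightest probe set. Of these 23 rose and 22 fell (37.7% and 36.1%), where 24.1% and 23.2% of 18132 genes did and 47.3% were called either way. Their median was -0.01, as was that of all genes. Centred on ribosomal protein probe sets 32 list genes were higher and 14 lower, and centred on poly-A spike-ins 24 and 13. Of all 49293 probe sets 24533 were higher and 7080 lower in the first of these centrings, and 14969 and 6598 in the second. Centred on hybridization spike-ins 22 list genes were higher and 24 lower, where 10435 and 12164 of all probe sets were. The lists were chosen with earlier results of these data known, so no excess over all genes is read from these counts. For the same reason the adjusted p-values of list genes are descriptive. Level was not matched either. Most list genes had a mean of 5 or more, where 62.4% of all probe sets were called, against 15.1% of dimmer ones.

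Of the 4 RAS proteins analysed 3 rose and 0 fell, also in all 3 centrings. MRAS, which is among the 3, was at 0.30 ± 0.07, but its other 2 probe sets, at -0.13 and 0.07, were not called. RRAS, a RAS relative that acts on integrin adhesion, rose by 1.36 ± 0.06 (limma's adjusted p = 1.18e-06), and HRAS was at -0.12 ± 0.06 and did not pass. Of 10 exchange factors and adaptors 2 rose and 3 fell, against 6 higher and 1 lower centred on ribosomal protein probe sets and 3 and 1 on poly-A spike-ins, with SOS1 at -0.59 ± 0.06 and its adaptor GRB2 at 0.57 ± 0.07 (limma's adjusted p = 7.7e-05 and 0.000271). Of 9 effectors 4 rose and 4 fell, against 5 higher and 2 lower centred on ribosomal protein probe sets and 4 and 2 on poly-A spike-ins. RGL1, an exchange factor for RAL, rose by 2.97 ± 0.09, and ARAF, a kinase of the MAP kinase cascade, was at -0.29 ± 0.06 (limma's adjusted p = 3.3e-07 and 0.00501), the second call being lost in both of these centrings. The other 4 ARAF probe sets were at -1.32 to -0.88, and all 4 were called lower without centring.

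Of 9 genes listed as partners of RAS GAPs 1 rose and 4 fell, against 2 higher and 3 lower centred on ribosomal protein probe sets and 1 and 2 on poly-A spike-ins. Centred on hybridization spike-ins 1 was higher and 5 lower. EZH2, which is among the 4 that fell, was at -0.56 ± 0.09. Its other 2 probe sets were called in opposite directions, at -0.68 and 0.69. SPRED1 and SPRED2, which bring neurofibromin to the plasma membrane, were at -0.65 ± 0.10 and -0.43 ± 0.06 (limma's adjusted p = 0.00073 and 0.000635), and the second call was lost when centred on poly-A spike-ins. SPRED1 read 8.61, 8.53 and 8.62 in the SAHA arrays, against 9.44, 9.07 and 9.21 in the DMSO arrays, without overlap. Of 12 genes downstream of the MAP kinase cascade 4 rose and 8 fell, and 4 and 7 centred on ribosomal protein probe sets and also on poly-A spike-ins. The cyclin CCND1 was at -2.19 ± 0.07, the AP-1 subunit FOSL1 at -1.76 ± 0.07, the feedback inhibitor SPRY2 at -1.59 ± 0.07 and the phosphatase DUSP4 at -1.32 ± 0.06. The phosphatase DUSP6 rose by 0.91 ± 0.07 and the transcription factor EGR1 by 1.19 ± 0.06. Adjusted p-values of these 6 in limma's test lay between 3.75e-07 and 2.61e-05.

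Of 6 other genes with a RAS GAP domain 3 rose and 1 fell, against 4 higher and 0 lower centred on ribosomal protein probe sets and 3 and 0 on poly-A spike-ins. IQGAP2, which is among the 3 that rose, had a DMSO mean of 3.33, close to the background controls. Its other 3 probe sets, at -0.05 to 0.20, were not called. GAPVD1 rose by 0.56 ± 0.06 and IQGAP1, a scaffold whose GAP-related domain does not act as a GAP, by 0.36 ± 0.06 (limma's adjusted p = 0.000152 and 0.000877). RASA4B was read from the brightest probe set it shares with RASA4, 11739422_s_at, which was not called. Another that it shares, 11746458_s_at, was called higher, at 2.62 ± 0.13. Of 6 GAPs of RAP, the RAS relative on which RASA3 also acts, 4 rose and 1 fell. This was so centred on ribosomal protein probe sets and on poly-A spike-ins, but centred on hybridization spike-ins 3 were higher and 2 lower. The call of SIPA1L3, at 0.20 ± 0.06, was kept in 5 of 12 other settings. SIPA1L2 rose by 2.93 ± 0.06 and SIPA1L1 was at -0.91 ± 0.07 (limma's adjusted p = 9.72e-08 and 1.87e-05). Of 5 RAP proteins 2 rose and 1 fell, against 4 higher and 0 lower centred on ribosomal protein probe sets and 2 and 0 on poly-A spike-ins, so that the fall, that of RAP2C, was lost in both. RAP2A was at 1.10 ± 0.06 (limma's adjusted p = 2.73e-06). The call of RAP1A, at 0.46 ± 0.13, was lost without the second or the third SAHA array. RAP2B was not called from its brightest probe set, at 0.09, but its other 2, at 0.35 and 0.42, were called higher.

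**Figure D4:**
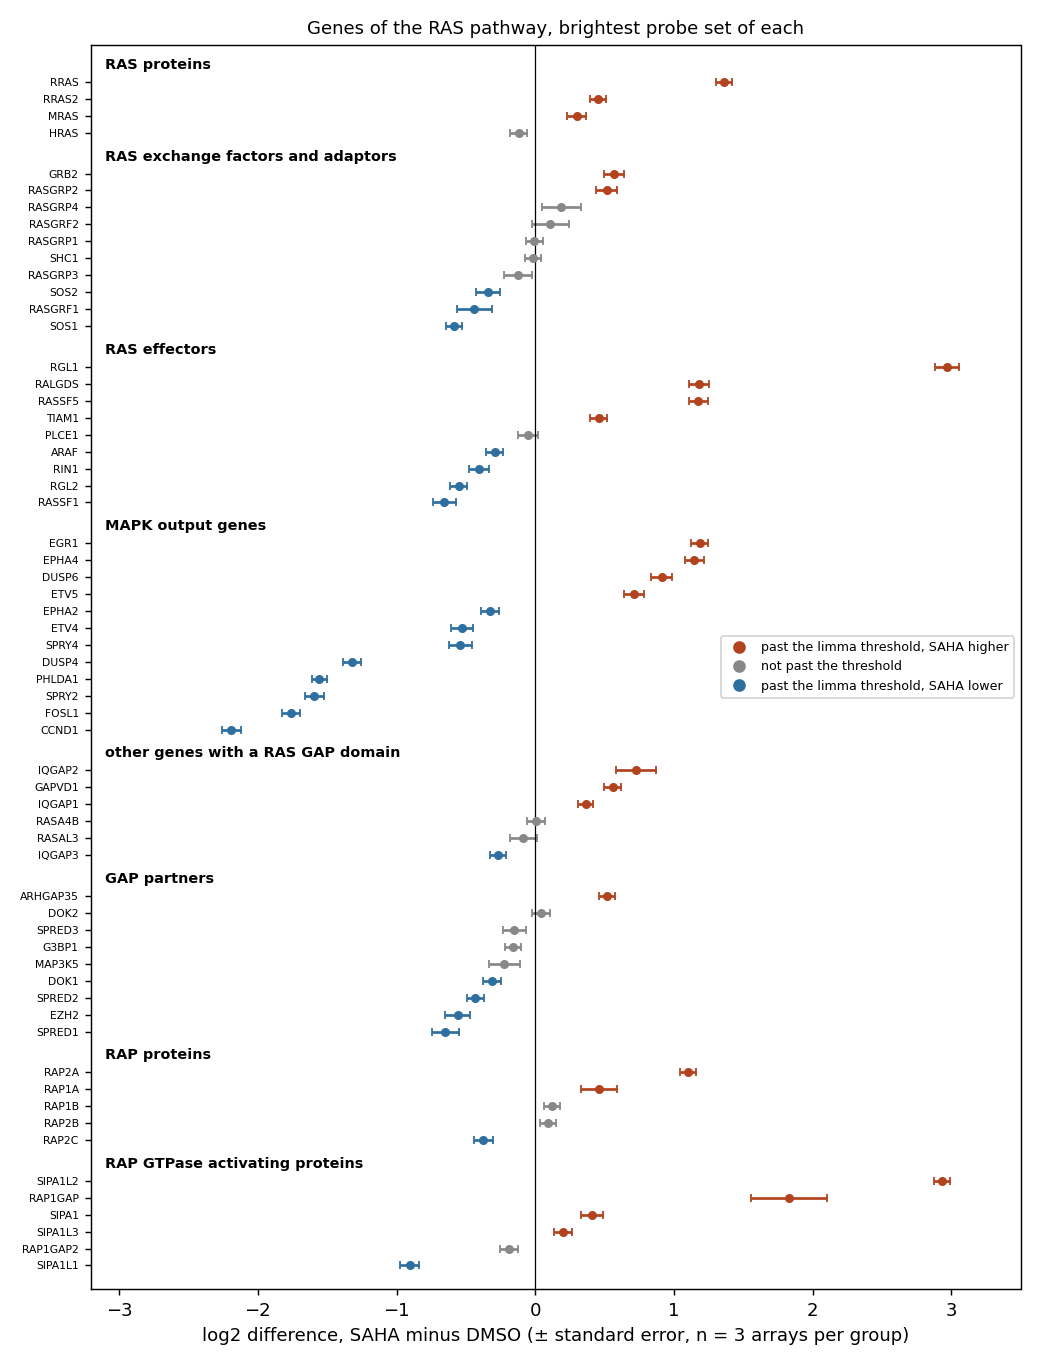
Log2 difference SAHA minus DMSO (x axis, points, with standard errors as bars) for 61 genes of the RAS pathway in 8 lists, each read from its brightest probe set. The points farthest from 0 are RGL1 at 2.97, SIPA1L2 at 2.93 and CCND1 at -2.19.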

How the data were processed

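Biotin-labelled RNA from the MDA-MB-231 cells was hybridized to PrimeView arrays, per the labels' protocols. The authors deposited log2 values for each probe set, and the submitters' processing notes name RMA, without a version in the sources used here. RMA equalizes the distributions of the arrays, so a shift shared by most transcripts would not be visible. Of the 49395 probe sets 102 array controls were left out, and of the rest 44988 named 1 gene, 1832 several and 2473 none in the platform annotation. Groups and replicate numbers are those of the labels.

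limma 3.58.1 in R 4.3.3 (lmFit and eBayes, no covariates, no filter) was run over 49293 probe sets, two-sided, with Benjamini-Hochberg adjustment at 0.05, after being tested on simulated data. Members and lists were chosen with earlier results of these data known. All member probe sets are accounted for, any list gene may be named, and the 5 genes most like RASA4 have the smallest distance. List and neighbour genes were read from the brightest probe set naming only them, except RASA4B, which was read from a member probe set that it shares with RASA4. Alternatives were a replicate block, repeated quantile normalization, 3 centrings, trend and robust moderation, level filters at 5 and 7, no _x_at or _s_at probe sets, a threshold of 0.01, averaging all probe sets of a list or neighbour gene, and leaving out each array. Figures were drawn with matplotlib 3.10.9.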

Additional observations from a re-analysis of the deposited data

How the results depend on the processing

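Of the members 3 were called higher, and 11 when centred on ribosomal protein probe sets, 0 with a filter at a mean of 7 and 1 without _x_at and _s_at probe sets. The 14 called lower became 4 when centred on ribosomal protein probe sets, 5 on poly-A spike-ins, 8 and 3 with filters at 5 and 7, which leave 17 and 4 members, 7 without _x_at and _s_at probe sets, which leaves 24, and 6 at a threshold of 0.01. Leaving out each array gave 2 to 3 members higher and 7 to 10 lower. Of all 49293 probe sets 10949 were higher and 11901 lower. When centred on ribosomal protein probe sets 24533 and 7080 were, and on poly-A spike-ins 14969 and 6598. The filters at 5 and 7 left 32556 and 19943, of which 10244 and 7265 were higher and 11478 and 8731 lower. Without _x_at and _s_at probe sets 7402 and 7747 of 34921 were called, and at a threshold of 0.01 8804 and 9467 of 49293. Pathway genes called lower were 22, and 14 and 13 when centred on ribosomal protein probe sets and on poly-A spike-ins; leaving out each array gave 21 to 23 higher and 21 to 22 lower. RASA4 neighbours called higher were 5, and 2 without _x_at and _s_at probe sets, and those called lower were 3, and 1 with a filter at 7; leaving out each array gave 4 to 5 higher and 2 to 3 lower. Centred on ribosomal protein probe sets, the called difference of RASA3 11751530_a_at became 0.0093 and that of NF1 11763466_at 0.038, both with the sign turned. The filters test fewer probe sets, as does leaving out _x_at and _s_at ones, which removes the neighbours POLR2J3 and ALKBH4. Each centring subtracts the same value from all probe sets of an array, so every difference moves by the same amount. Why the reference probe sets differed between groups was not tested. Deviations of same-numbered arrays correlated at -0.0967, -0.0792 and -0.0349, so no shared replicate effect was visible. Such values cannot tell whether the samples were paired by design. With the replicate block 2 members were called higher and 11 lower, 22 and 22 pathway genes, and 5 and 3 neighbours. The 13 members with a mean under 4 are limited by signal over background.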
